A study of Mus musculus with 12 samples.

Results

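The comparison set tumours of mice given dual immune checkpoint blockade together with Dexa at 200 mg (3 samples) against tumours of mice given an isotype antibody (3 samples). The 6 samples, taken by their titles, belong to a series of 12, whose remaining groups received the blockade alone (3 samples) or the blockade with Dexa at 10 mg (3 samples). The blockade, labelled dICB, combines antibodies against PD-1 and CTLA-4, and the labels give Dexa in mg without a body weight or schedule. The study's title speaks of corticosteroid premedication. Both antibodies and Dexa differ between the groups, so the effects of the blockade and of Dexa cannot be told apart in it. All samples were primary hepatocellular carcinomas of mice, preserved as formalin-fixed paraffin-embedded tissue, from which total RNA was measured with an immune panel of 770 genes. The strain, age and tumour model of each group are not given by the labels. No label ties a sample to its own mouse, so the p-values measure only the spread between samples, part of which may be technical, and none of the 4 groups is labelled with Dexa alone.

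Antibodies against PD-1 and CTLA-4 remove inhibitory signals on T cells, and interferon gamma from T cells acts on macrophages and tumour cells to induce chemokines, antigen presentation and the ligand PD-L1. Corticosteroids act through the glucocorticoid receptor, which enters the nucleus, represses many NF-kB and AP-1 driven cytokine genes and induces others. In liver tumours, macrophages and monocytes can be a large part of the immune infiltrate, and they both answer and make chemokines.

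Of the 770 genes, 635 averaged 20 counts or more across all samples and were tested with edgeR's quasi-likelihood test. At a Benjamini-Hochberg adjusted p of 0.05, 84 genes (13.2%) differed between the Dexa 200 mg group and the isotype group: 39 rose (6.14%) and 45 fell (7.09%). Numbers of genes that rose or fell in the gene lists below are to be read against these shares. At an unadjusted p of 0.05, the counts were 100 higher (15.7%) and 105 lower (16.5%). In all 84 genes the 3 values at 200 mg lay outside the range of the 3 isotype values, a separation that 283 of the tested genes showed (44.6%), 133 of them higher (20.9%) and 150 lower (23.6%). Macrophage and monocyte genes made up 12 of the 84, and 28 of the higher and 44 of the lower genes lay outside that list. The same test passed no gene for the blockade alone against isotype (127 genes, 20%, at an unadjusted p of 0.05), for Dexa 10 mg against isotype (53 genes, 8.35%), for Dexa 200 mg against the blockade alone (54 genes, 8.5%) or for Dexa 200 mg against Dexa 10 mg (76 genes, 12%). DESeq2 passed 24, 4, 3 and 0 genes in those 4 comparisons, in the same order. A gene that passed against isotype is therefore not shown to differ between 200 mg and the other blockade groups.

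The split into higher and lower genes depended on the scaling, which was TMM (trimmed mean of M-values) unless stated. With factors from the 20 housekeeping genes, 161 genes passed as higher and 5 as lower, and with factors from the positive control probes, 55 passed as higher and 2 as lower. These factors moved the median log2 difference of all genes to 0.546 and 0.340, against 0.026 with TMM. All 84 genes kept their sign under both, but of the 45 that fell, 5 and 2 still passed, while all 39 that rose still passed. Below, a fall is therefore a fall relative to the other genes of the panel.

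Gene totals were 262314 to 425712 counts at 200 mg and 305347 to 357771 in isotype samples. Replicates correlated at 0.967 to 0.974 among the 200 mg samples and at 0.972 to 0.988 among the isotype samples (Pearson's r of log2 values across tested genes). In the groups outside the comparison, which share the estimate of the spread, blockade replicate 1 correlated with its 2 partners at 0.895 and 0.900, and Dexa 10 mg replicate 2 with its partners at 0.926 and 0.942. Without these 2 samples 170 genes passed, 82 higher and 88 lower. The labels also carry a code, ICI7 or ICI10, whose meaning they do not give: 200 mg replicates 1 and 2 were coded ICI10, and 200 mg replicate 3 and all isotype samples were coded ICI7. Fitted with this code as a covariate, 29 genes passed (18 higher, 11 lower), and among samples coded ICI7 alone (1 at 200 mg against 3 isotype) 4 passed, all higher. All counts also turned on single libraries. Leaving out isotype replicate 3 left 0 genes (135 at an unadjusted p of 0.05, smallest adjusted p 0.0503), leaving out isotype replicate 2 left 9, and leaving out 200 mg replicate 1, 2 or 3 left 50, 11 and 11, while leaving out isotype replicate 1 left 95.

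**Figure D1:**
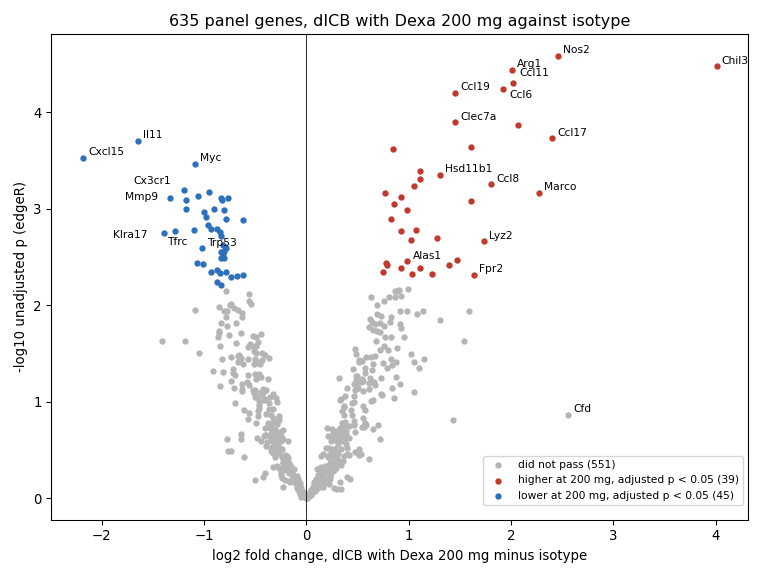
Each point is 1 of the 635 tested genes, with the log2 fold change of Dexa 200 mg minus isotype on the horizontal axis and the -log10 of the unadjusted edgeR p on the vertical axis. The 39 genes that rose (red) reach a log2 difference of 4.01 for Chil3, and the 45 that fell (blue) reach -2.19 for Cxcl15.

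The genes with the smallest p were genes of the macrophage list and chemokines. Which cells of the bulk tumour made these transcripts was not tested. Chil3, which encodes the chitinase-like lectin Ym1 of alternatively activated mouse macrophages, had 431, 1178 and 335 normalised counts at 200 mg, against 35.7, 36.7 and 48.2 in isotype samples (log2 difference 4.01 ± 0.64 SE, adjusted p = 0.00665). Every 200 mg sample was far above every isotype sample, and replicate 2 was the highest of them. Both enzymes that compete for arginine rose. Arg1, which hydrolyses arginine to ornithine and urea, had 1136, 1788 and 1458 normalised counts at 200 mg, against 288, 350 and 453 in isotype samples (log2 difference 2.00 ± 0.32, adjusted p = 0.00665). Nos2, the inducible nitric oxide synthase, had 303, 468 and 255 at 200 mg, against 62.9, 61.9 and 61.7 in isotype samples (2.46 ± 0.38, adjusted p = 0.00665). The isotype samples were almost equal to each other in Nos2, and the groups did not overlap in either enzyme. Normalised counts are counts scaled to an equal effective library, and levels are compared between samples of a gene only.

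Of the 29 tested macrophage and monocyte genes, 11 rose and 1 fell, with a median log2 difference of 0.774, against 0.026 over all genes. Those that rose included the pattern receptor Clec7a (1.46), the scavenger receptor Marco (2.27), the lysosomal glycoprotein Cd68 (0.85), lysozyme Lyz2 (1.73) and the integrin subunit Itgam (1.39), which is CD11b. Cx3cr1, the fractalkine receptor of patrolling monocytes and tissue macrophages, fell, with 47.7, 47.9 and 41.3 normalised counts at 200 mg, against 130, 75.5 and 108 in isotype samples (log2 difference -1.19 ± 0.26, adjusted p = 0.0171). The summed level of the list was 29000 to 41870 at 200 mg and 9772 to 19680 in isotype samples, so the groups did not overlap. Lyz2 alone made up 62.2% to 72.3% of that sum at 200 mg and 39.8% to 62.9% in isotype samples. The other 28 genes summed to 10970 to 11930 at 200 mg and 5648 to 7307 in isotype samples, also without overlap. In bulk tumour RNA, more cells of a type and more RNA per cell cannot be told apart, and the same holds for falls.

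Chemokines of the CC class were the largest group of higher genes outside the macrophage list. Of 27 tested CC and C chemokines and their receptors, 7 rose (25.9%) and none fell, 22 had a positive log2 difference, and the median was 0.538. Over all 635 tested genes 6.14% rose, 328 had a positive difference, and the median was 0.026. All 7 CC genes that rose were ligands. Ccl11, or eotaxin, draws eosinophils through CCR3, and it had 233, 296 and 366 normalised counts at 200 mg, against 84.5, 75.5 and 60.5 in isotype samples (log2 difference 2.02 ± 0.33, adjusted p = 0.00665). Ccl8, a ligand of monocyte and T cell receptors, had 758, 1191 and 2623 at 200 mg, against 555, 326 and 425 in isotype samples (1.81 ± 0.39, adjusted p = 0.0171). The 3 samples at 200 mg spanned a wide range in Ccl8, with replicate 3 highest, yet all lay above the isotype samples.

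The mouse chemokines Ccl6 and Ccl9, made by myeloid cells and acting through CCR1, rose with them. Ccl6 had 573, 557 and 618 normalised counts at 200 mg, against 216, 120 and 126 in isotype samples (log2 difference 1.92 ± 0.32, adjusted p = 0.00665), and Ccl9 had 1512, 1781 and 1947, against 590, 331 and 324 (2.07 ± 0.38, adjusted p = 0.0107). In both genes the 200 mg samples lay close together, and isotype replicate 1 was the highest isotype sample.

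Ccl17 and Ccl22, the ligands of CCR4 on helper and regulatory T cells, are made by dendritic cells and macrophages. Ccl17 had 175, 404 and 202 normalised counts at 200 mg, against 42.2, 57.7 and 47.1 in isotype samples (log2 difference 2.40 ± 0.46, adjusted p = 0.0125). Ccl22 had 129, 134 and 108 at 200 mg, against 32.9, 45.1 and 43.7 in isotype samples (1.61 ± 0.31, adjusted p = 0.0127). Their receptor gene Ccr4 was at or below the background limit in all 6 samples and was not tested. Ccl19, a ligand of CCR7 that guides dendritic cells and naive T cells in lymphoid tissue, had 168, 179 and 150 at 200 mg, against 57.3, 58.7 and 65.0 in isotype samples (1.46 ± 0.25, adjusted p = 0.00665). Neither group varied much in Ccl19, and they were widely separated.

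By position in GRCm38.p6, each of the 7 genes lies near another chemokine gene of the panel. Ccl22 and Ccl17 lie within 66.4 kb on chromosome 8 (94745684 to 94751388 and 94809380 to 94812038), with the tested gene Cx3cl1 between them, which did not pass. Ccl11 and Ccl8 lie in a group of 144.2 kb on chromosome 11 that also holds Ccl2, Ccl7, Ccl12 and Ccl1, none of which passed. Ccl9 and Ccl6 lie in a second group on chromosome 11, of 138.9 kb, with Ccl5, Ccl3 and Ccl4, none of which passed. Ccl19 lies on chromosome 4 from 42754525 to 42756365, within 19.5 kb of the CCR7 ligand gene Ccl21a, which had 57.9, 31.0 and 34.4 normalised counts at 200 mg, against 28.2, 45.1 and 59.4 in isotype samples, and did not pass (log2 difference -0.07, adjusted p = 0.918). Neighbours that did not pass included Ccl1, with a log2 difference of 1.00 (adjusted p = 0.0507), and Ccl5, with 0.75 (adjusted p = 0.109).

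Ccl17 averaged 71.7 ± 20.1 normalised counts with the blockade alone, 166 ± 109 with Dexa 10 mg and 260 ± 126 with Dexa 200 mg, against 49.0 ± 7.9 in isotype samples (SD, n = 3 each). Ccl19 averaged 80.5 ± 24.8 with the blockade alone, 82.3 ± 13 with 10 mg and 166 ± 14.4 with 200 mg, against 60.3 ± 4.12 in isotype samples. Ccl6 averaged 365 ± 132 with the blockade alone, 339 ± 94.5 with 10 mg and 583 ± 31.9 with 200 mg, against 154 ± 53.9 in isotype samples. In Ccl19 the 200 mg mean exceeded the mean of each other blockade group by over 1 log2 unit (1.03 ± 0.24 above the blockade alone and 1.01 ± 0.24 above 10 mg), although neither difference passed (adjusted p = 0.267 and 0.299). The contrasts against isotype share the isotype samples, and those of 200 mg share the 200 mg samples.

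**Figure D2:**
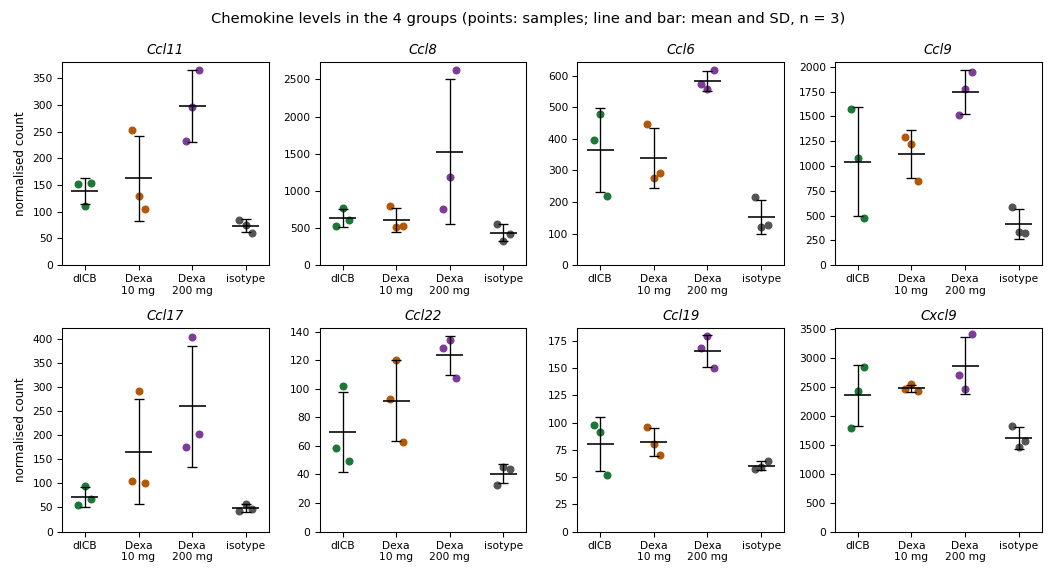
Normalised counts of 8 chemokine genes in the 4 groups, with a point per sample and the mean and SD (n = 3) as a line and bar on a linear axis that starts at 0. In all 8 genes the 3 samples at Dexa 200 mg lie above the 3 isotype samples, and the blockade alone and Dexa 10 mg have means between those of the other two groups.

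Among 19 CXC and CX3C chemokines and receptors, 1 rose and 3 fell, with a median of 0.002. Cxcl9, an interferon gamma induced ligand of CXCR3 on activated T cells, had 2705, 2463 and 3412 normalised counts at 200 mg, against 1826, 1458 and 1559 in isotype samples (log2 difference 0.83 ± 0.20, adjusted p = 0.0201). Cxcl15, a mouse neutrophil chemokine best known from lung epithelium, fell further than any other tested gene, with 176, 70.5 and 103 at 200 mg, against 334, 648 and 620 in isotype samples (-2.19 ± 0.44, adjusted p = 0.0144). The groups did not overlap in either gene, and isotype replicate 1 was the lowest isotype sample in Cxcl15. The platelet chemokine Ppbp also fell, near the background limit, with 26.4, 32.4 and 26.4 at 200 mg, against 57.3, 43.0 and 61.7 in isotype samples (adjusted p = 0.0225). Cxcl12, a stromal chemokine that holds cells bearing CXCR4, had a log2 difference of 1.59 ± 0.54 with overlapping groups and did not pass (adjusted p = 0.0669).

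Interferon gamma response genes had 2 members that rose among 18 tested, 16 positive differences and a median of 0.202. Besides Cxcl9, the guanylate-binding protein gene Gbp5, which takes part in cell-autonomous defence and inflammasome activation, had 974, 1254 and 1055 normalised counts at 200 mg, against 648, 643 and 637 in isotype samples (log2 difference 0.77 ± 0.17, adjusted p = 0.0171). The isotype samples were nearly identical in Gbp5, and each 200 mg sample was higher. Of 27 type I interferon response genes, 2 rose and none fell, with a median of 0.198. The shares that rose were 11.1% for interferon gamma and 7.41% for type I, against 6.14% of all tested genes, whose median was 0.026. With 2 calls each, these shares do not set the lists apart from the panel. Ifit2, which binds RNA and restrains translation, had 230, 259 and 289 at 200 mg, against 130, 142 and 139 in isotype samples (0.92 ± 0.21, adjusted p = 0.0171), and Irf7, the transcription factor that amplifies type I interferon, had 243, 262 and 356, against 139, 121 and 149 (1.07 ± 0.27, adjusted p = 0.0225). Other members were less separated, such as Ifit1 (0.91, adjusted p = 0.0669) and Isg15 (0.74, adjusted p = 0.208).

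The 250 bases before the start listed in RefSeq's promoter table are shown for 4 genes that rose, since these windows hold letters that interferon and interleukin-4 regulated factors are known to bind. Capitals mark matches on either strand to 3 motifs: the interferon-stimulated response element, here GAAA and GAAA with any 2 bases between them, the gamma-activated site, TTC and GAA with any 3 bases between them, and the STAT6 site, TTC and GAA with any 4 bases between them. Sequences are from RefSeq on GRCm38.p6, written 5′ to 3′ in the direction of transcription. Gbp5 (chr3:142496684-142496933, plus strand) has the first motif starting 165 bases before the start and the second at 245 and 52 bases. Ccl19 (chr4:42756366-42756615, minus strand) has the first motif at 208 bases. Ccl17 (chr8:94810203-94810452, plus strand) has the second at 99 bases and the third at 154 bases. This Ccl17 window lies inside the gene's annotated span given above, so the listed start is downstream of the span's first base. Chil3 (chr3:106167565-106167814, minus strand) has the second at 172 bases.
Gbp5: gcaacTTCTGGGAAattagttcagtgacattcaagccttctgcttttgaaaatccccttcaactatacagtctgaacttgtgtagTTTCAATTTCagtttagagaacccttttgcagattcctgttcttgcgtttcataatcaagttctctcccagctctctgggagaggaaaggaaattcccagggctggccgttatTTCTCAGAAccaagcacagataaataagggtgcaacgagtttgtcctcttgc
Ccl19: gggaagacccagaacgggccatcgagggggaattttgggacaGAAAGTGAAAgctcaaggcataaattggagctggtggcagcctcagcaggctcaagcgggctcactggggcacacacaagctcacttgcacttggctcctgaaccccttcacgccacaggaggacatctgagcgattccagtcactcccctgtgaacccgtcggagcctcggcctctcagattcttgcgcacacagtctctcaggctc
Ccl17: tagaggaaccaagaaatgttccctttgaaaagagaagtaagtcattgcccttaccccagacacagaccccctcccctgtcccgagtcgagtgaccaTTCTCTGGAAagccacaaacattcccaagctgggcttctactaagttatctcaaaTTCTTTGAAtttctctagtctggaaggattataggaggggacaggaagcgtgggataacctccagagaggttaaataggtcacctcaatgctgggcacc
Chil3: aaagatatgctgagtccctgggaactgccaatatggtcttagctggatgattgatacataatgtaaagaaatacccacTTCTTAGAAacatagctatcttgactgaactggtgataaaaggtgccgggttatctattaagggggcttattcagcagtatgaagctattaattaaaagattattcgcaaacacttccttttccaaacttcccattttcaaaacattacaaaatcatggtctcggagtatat

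Promoter entries were matched by symbol for 63 of the 84 genes, 32 that rose and 31 that fell. In the same window of 250 bases, the interferon-stimulated response element was found in 9.38% of the genes that rose and 6.45% of those that fell, against 8.19% of 464 tested genes with an entry and 2.98% of 32851 promoter entries. The gamma-activated site was found in 21.9% and 9.68%, against 11.9% and 7.02%, and the STAT6 site in 15.6% and 6.45%, against 7.76% and 5.85%. The full glucocorticoid response element, AGAACA and TGTTCT with any 3 bases between them, was found in 0 of the 464 tested genes and in 3 of the 32851 entries, and its half-site AGAACA in 21.9% of genes that rose, 9.68% of those that fell, 17.9% of tested genes and 16.1% of entries. The E-box CACGTG, which MYC binds, was found in 3.12% of genes that rose and 9.68% of those that fell, against 9.05% of tested genes and 6.02% of entries. The half-site lies within the full glucocorticoid element, both strands were searched, and no test was made of these shares, which rest on at most 7 genes in each direction.

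All 10 tested MHC class II presentation genes had positive log2 differences, with a median of 0.541, and 1 passed. That gene, Ctss, encodes the protease cathepsin S that cleaves the invariant chain, and it had 6354, 6545 and 6997 normalised counts at 200 mg, against 2809, 2242 and 2141 in isotype samples (log2 difference 1.47 ± 0.41, adjusted p = 0.0343). The class II chains H2-Ab1 (0.69, adjusted p = 0.0633) and H2-Eb1 (0.72, adjusted p = 0.0787) did not pass, although neither overlapped between the groups. The summed class II level was 46050 to 64540 at 200 mg and 33220 to 39680 in isotype samples. Of 17 MHC class I genes, 1 rose and 3 fell, with a median of 0.068. The classical chain H2-K1 had 1227, 1182 and 1429 at 200 mg, against 870, 613 and 537 in isotype samples (0.93 ± 0.23, adjusted p = 0.0225). Those that fell were the proteasome lid subunit Psmd7 (-0.76), the non-classical H2-Q1 (-1.01) and H60a (-1.08), a ligand of the activating receptor NKG2D. MHC genes resemble one another, and how far the probes tell H2-K1 and H2-Q1 apart was not tested.

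Fc receptor and signalling adaptor genes that act through tyrosine motifs had 5 members that rose (25%) and none that fell among 20 tested (median 0.575). Over all tested genes 6.14% rose and the median was 0.026. The 5 were the inhibitory antibody receptor Fcgr2b (1.11), the kinases Syk (0.98) and Btk (1.05), and the self-binding receptors Slamf7 (1.61) and Cd84 (1.02). Slamf7 had 397, 354 and 433 normalised counts at 200 mg, against 176, 89.2 and 122 in isotype samples, with no overlap. Syk and Cd84 also belong to the macrophage list, and Btk is shared with the B cell list, in which it was the 1 gene of 8 that rose. Ms4a1, which encodes CD20 and defines B cells, was at or below the background limit in all 6 samples.

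T cell genes gave no call. Of 19 tested, 0 passed with edgeR (0 at an unadjusted p of 0.05, and 0 with DESeq2). Of them, 15 had positive differences, and the median was 0.134. No member separated the groups, while 44.6% of all tested genes did. Their summed level was 1542 to 2586 at 200 mg and 1595 to 2288 in isotype samples. Cd8a had 95.4, 113 and 169 normalised counts at 200 mg, against 134, 88.1 and 97.5 in isotype samples, and the groups overlapped. Among 11 cytotoxic effector genes 1 rose: Gzmb, encoding granzyme B, had 115, 135 and 168 at 200 mg, against 59.1, 50.3 and 62.8 in isotype samples (log2 difference 1.28 ± 0.33, adjusted p = 0.0247). Gzma pointed the same way without passing (0.95, adjusted p = 0.0954). Of 12 helper and regulatory T cell genes 0 passed with edgeR (2 at an unadjusted p of 0.05, and 1, a fall, with DESeq2).

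Of 11 tested genes in the natural killer cell list, Il12rb2 rose and Klra4 and Klra17 fell. The list took in the Klra genes as a family, so a member such as Klra17 need not be a gene of natural killer cells. Il12rb2, an interleukin-12 receptor chain also found on T cells, had 40.9, 43.7 and 55.1 normalised counts at 200 mg, against 22.5, 25.2 and 20.2 in isotype samples, all 3 of which were at or below the background limit. Klra4 had 26.4, 29.6 and 32.1 at 200 mg, against 54.4, 45.1 and 53.8 in isotype samples (-0.80 ± 0.19, adjusted p = 0.0184). Klra17 was at or below that limit in all 200 mg samples, so no fold is given for it. The limit was the mean of the negative control probes plus 2 SD, at 24.6 to 32.1 normalised counts at 200 mg and 24.5 to 36.2 in isotype samples. Klra genes encode the closely related Ly49 receptors, and whether their probes tell them apart was not tested.

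Of 31 checkpoint and costimulation genes, which include the targets of the blockade and their ligands, 1 passed (3.23%), against 13.2% of all tested genes. Of the 31, 7 lay wholly above and 6 wholly below the isotype range, against 20.9% and 23.6% of all tested genes. These shares were not tested. The gene that passed was Cd86, a ligand of CD28 and CTLA-4 on antigen-presenting cells, which rose. It had 157, 173 and 126 normalised counts at 200 mg, against 103, 92.3 and 68.4 in isotype samples (log2 difference 0.79 ± 0.22, adjusted p = 0.0353). Cd274, which encodes PD-L1, had 1201, 1702 and 1229 at 200 mg, against 729, 773 and 739 in isotype samples, and missed the threshold without overlap (0.88 ± 0.28, adjusted p = 0.0512 with edgeR and 0.0291 with DESeq2). Pdcd1, encoding PD-1, had 168, 310 and 366 at 200 mg, against 390, 255 and 350 in isotype samples (-0.24 ± 0.36, adjusted p = 0.683). Ctla4 had 32.4, 40.9 and 52.8 at 200 mg, against 59.1, 54.5 and 58.3 in isotype samples (-0.46 ± 0.26, adjusted p = 0.227). Pdcd1 overlapped between the groups and Ctla4 did not. With housekeeping factors the differences of both had the opposite sign, at 0.30 for Pdcd1 and 0.09 for Ctla4.

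**Figure D3:**
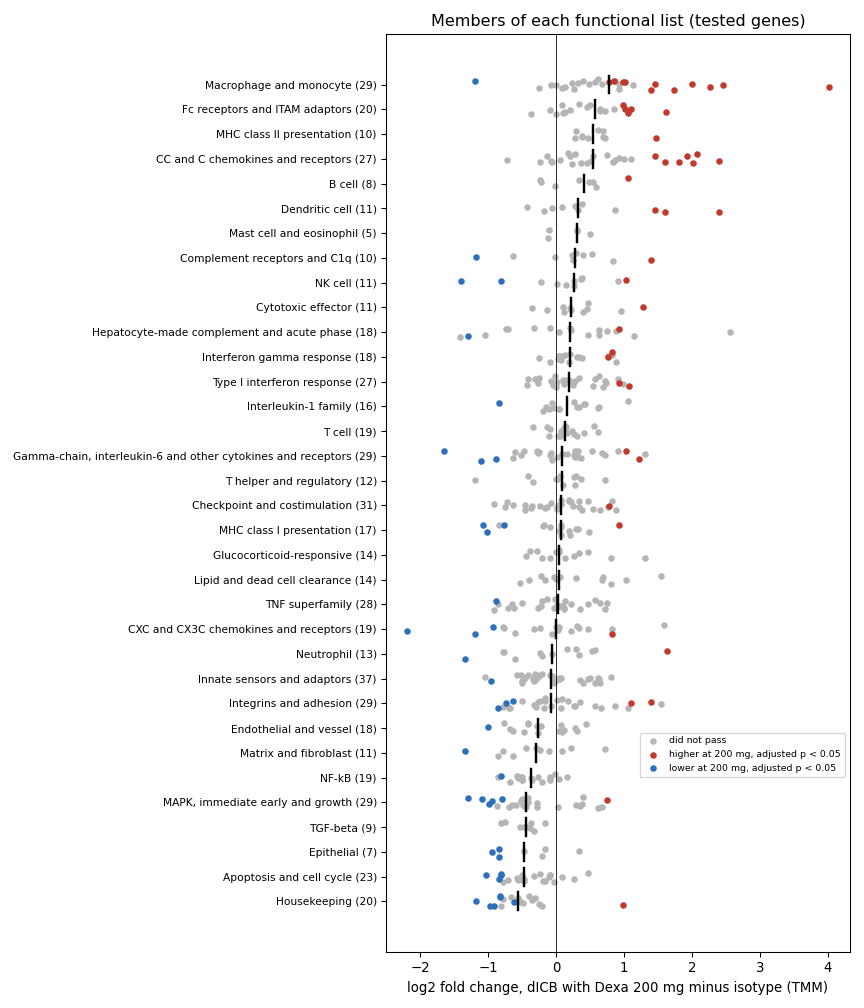
Log2 fold change of Dexa 200 mg minus isotype for the tested members of 34 functional lists, ordered by their median (black line), with the number of tested members in brackets. Members that rose are red and those that fell are blue: macrophage, Fc receptor, MHC class II and CC chemokine lists have the highest medians, and housekeeping, apoptosis, epithelial and TGF-beta lists the lowest.

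The list of gamma-chain, interleukin-6 and other cytokines and their receptors had 2 higher and 3 lower members among 29. Csf2rb, the shared signalling chain of the receptors for GM-CSF, interleukin-3 and interleukin-5, had 306, 530 and 430 normalised counts at 200 mg, against 230, 148 and 163 in isotype samples (log2 difference 1.23 ± 0.36, adjusted p = 0.0385). Lif, a cytokine of the interleukin-6 family, had 74.1, 84.5 and 51.6 at 200 mg, against 136, 126 and 124 in isotype samples (-0.88 ± 0.25, adjusted p = 0.0383). The groups did not overlap in either gene. Il11, another member of that family, had 11.1, 8.45 and 10.3 at 200 mg, against 30.0, 36.7 and 29.2 in isotype samples, and Il7, the stromal survival factor of lymphocytes, had 20.5, 16.9 and 18.4, against 31.9, 45.1 and 43.7. Both were lower by the test (adjusted p = 0.0125 and 0.0225), but all their 200 mg values were at or below the background limit, so no fold is given.

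Of 110 tested genes in no list, 3 rose and 7 fell, and the 3 that rose are given here. Hsd11b1, the enzyme that regenerates active glucocorticoid in liver and other tissues, had 213, 140 and 166 normalised counts at 200 mg, against 77.0, 60.8 and 72.9 in isotype samples (log2 difference 1.30 ± 0.28, adjusted p = 0.0171). Lgals3, encoding the lectin galectin-3, had 4740, 6491 and 4447 at 200 mg, against 2412, 2604 and 2252 in isotype samples (1.11 ± 0.23, adjusted p = 0.0171). Lcp1, the leukocyte actin-bundling protein, had 1663, 1899 and 1809, against 1177, 950 and 871 (0.84 ± 0.17, adjusted p = 0.0127). In all 3 genes each 200 mg sample exceeded each isotype sample.

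Glucocorticoid-responsive genes gave no call. The list was limited to 15 genes of this immune panel, and a glucocorticoid response in genes outside the panel was not tested. Of 14 tested, 0 passed with edgeR (2 at an unadjusted p of 0.05, and 2 with DESeq2, Il7r and Mertk, both higher), 8 had positive and 6 negative log2 differences, and the median was 0.043, against 0.026 over all genes. The smallest p values were those of Il7r, with 160, 249 and 212 normalised counts at 200 mg, against 117, 76.6 and 56.1 in isotype samples (1.31 ± 0.46, adjusted p = 0.0760), and of Mertk, a receptor for the uptake of dead cells, with 234, 225 and 241, against 161, 138 and 99.8 (0.81 ± 0.29, adjusted p = 0.0781). Txnip had a difference of 0.46 (adjusted p = 0.233). Neither Il7r nor Mertk overlapped between the groups.

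Signalling, growth and cell death genes were among those that fell. Of 29 MAPK, immediate early and growth genes, 1 rose and 5 fell, and the median was -0.439. Of the 29, 17 lay wholly below the isotype range. Over all tested genes 7.09% fell and 23.6% lay wholly below that range. Myc, the growth transcription factor, had 879, 821 and 661 normalised counts at 200 mg, against 1307, 1886 and 1846 in isotype samples (log2 difference -1.09 ± 0.22, adjusted p = 0.0154). Dusp6, a phosphatase that is induced by and switches off ERK, had 1088, 906 and 871, against 1542, 2031 and 2109 (-0.99 ± 0.24, adjusted p = 0.0201). In both genes isotype replicate 1 was the isotype sample nearest to the 200 mg samples. Tfrc, the transferrin receptor, had 316, 295 and 252 at 200 mg, against 442, 1032 and 632 in isotype samples (-1.29 ± 0.32, adjusted p = 0.0225). The immediate early factor Egr1 (-0.79) and the growth factor receptor Egfr (-0.94) also fell, and the kinase Prkcd rose (0.75).

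Of 23 apoptosis and cell cycle genes, none rose and 4 fell (17.4%), 20 had negative differences, and the median was -0.470. Over all 635 tested genes 7.09% fell, 307 had negative differences, and the median was 0.026. Trp53, encoding p53, had 141, 148 and 153 normalised counts at 200 mg, against 268, 285 and 346 in isotype samples (log2 difference -1.03 ± 0.27, adjusted p = 0.0286). The 200 mg samples were close together and far below the isotype samples. The other apoptosis and cell cycle genes that fell included the pore-forming Bax (-0.82) and the death receptor adaptor Fadd (-0.81). Tnfrsf10b, the mouse receptor for the death ligand TRAIL, fell as the 1 call among 28 TNF superfamily genes (-0.88, adjusted p = 0.0225). Birc5, or survivin, which marks dividing cells, missed the threshold (-0.79, adjusted p = 0.0512).

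NF-kB genes had 17 of 19 negative differences, with a median of -0.366. The 1 gene that passed was 5.26% of the list, near the 7.09% of all tested genes that fell, so the call does not set the list apart. Nfkb2, a subunit of the non-canonical pathway, had 628, 545 and 529 normalised counts at 200 mg, against 937, 1057 and 975 in isotype samples and was the 1 member that passed (log2 difference -0.80 ± 0.22, adjusted p = 0.0335). Its partner Relb had 189, 172 and 158, against 242, 283 and 243 (-0.56, adjusted p = 0.0592). The whole list summed to 3773 to 4263 at 200 mg and 5078 to 5863 in isotype samples, without overlap. All 9 TGF-beta pathway genes had negative differences (median -0.446), but 0 passed with edgeR (3 at an unadjusted p of 0.05, and 0 with DESeq2). Of the 9, 7 lay wholly below the isotype range, against 23.6% of all tested genes. A fall was not particular to these pathways, since the housekeeping list had a lower median (-0.564). Smad2, which carries the signal of the receptor, had a difference of -0.81 (adjusted p = 0.151). With housekeeping factors the medians of the MAPK, apoptosis, NF-kB and TGF-beta lists were 0.094, 0.077, 0.169 and 0.090. The all-gene median under that scaling was 0.546. With positive control factors the medians of the lists were -0.116, -0.098, -0.022 and -0.138, against 0.340. Other factors move all genes by nearly the same amount. The place of these lists below the all-gene median could therefore hardly change, and it gives no added support.

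Housekeeping genes also fell relative to the panel. Of the 20, 6 fell and 1 rose, 19 had negative differences, and the median was -0.564. The 6 were the translation factor Eef1g (-0.96), the isomerase Ppia (-0.82), the deacetylase Hdac3 (-0.91), the RNA polymerase I subunit Polr1b (-1.17), the splicing factor Sf3a3 (-0.82) and Nubp1 (-0.62). Eef1g had 3292, 2556 and 2254 normalised counts at 200 mg, against 4055, 6008 and 5748 in isotype samples. The exception was Alas1, the first enzyme of heme synthesis in liver, with 313, 447 and 288 at 200 mg, against 178, 198 and 151 in isotype samples (log2 difference 0.99 ± 0.28, adjusted p = 0.0348). The list summed to 19250 to 26510 at 200 mg and 27670 to 40000 in isotype samples, with Rpl19 at 48.9% to 53.8% of the sum in the 6 samples. Outside the lists, the nucleoporin Nup107 (-1.06), the coactivator Crebbp (-0.79), Ewsr1 (-0.83), Smn1 (-0.79), Anp32b (-0.68) and the phospholipase Pla2g6 (-0.87) also fell. The part of total RNA content or of the makeup of the tissue in these falls was not tested.

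Genes of tumour epithelium and stroma gave smaller groups. Of 7 epithelial genes, Epcam (-0.84), Egfr and the receptor Erbb2 (-0.83) fell (42.9%) and none rose. Over all tested genes 7.09% fell. Epcam, an adhesion molecule of epithelial and progenitor-like liver tumour cells, had 130, 134 and 114 normalised counts at 200 mg, against 187, 248 and 241 in isotype samples (adjusted p = 0.0302). The summed epithelial level was 1510 to 1827 at 200 mg and 1714 to 2537 in isotype samples, with overlap, and the macrophage sum was higher at 200 mg. The tetraspanin gene Cd9 made up over 50% of the epithelial sum in each sample (65.8% to 70.2% at 200 mg and 53.3% to 60.8% in isotype samples), and the other 6 genes summed to 516.3 to 545.4 at 200 mg and 800.6 to 1040 in isotype samples, without overlap. Among 18 endothelial genes only Mcam passed, which fell (-1.001), and among 11 matrix and fibroblast genes only Mmp9, a gelatinase also stored in neutrophils. These single calls were 5.56% and 9.09% of the lists, near the 7.09% of all tested genes that fell, and do not set the lists apart. Mmp9 had 61.4, 31.0 and 44.7 at 200 mg, against 100, 130 and 120 in isotype samples (log2 difference -1.33 ± 0.30, adjusted p = 0.0171). The blockade alone averaged 114 ± 41.0 in Mmp9 (SD, n = 3), and 200 mg was lower than it by a log2 difference of -1.30 ± 0.30, which did not pass (adjusted p = 0.267).

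Of 29 integrin and adhesion genes, the leukocyte chains Itgam and Itgb2 (1.11) rose, while Itgb1 (-0.63), Itga6 (-0.74) and Cd44 (-0.85), which are found on most cells and on epithelium, fell. Itgb1 had 2595, 2385 and 2239 normalised counts at 200 mg, against 3713, 3848 and 3575 in isotype samples, and both groups were tight. In the neutrophil list of 13, the formyl peptide receptor Fpr2 rose (205, 147 and 209 at 200 mg, against 74.1, 58.7 and 47.1 in isotype samples) and Mmp9 fell. Fpr2 is also expressed by macrophages, as is Clec5a, which belongs to the macrophage list and not to the neutrophil list.

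Complement and acute phase genes that hepatocytes make, some of them shared with macrophages, stood in for markers of the liver lineage. Of the 29 genes of this list on the panel, 18 were tested, and the rest were below the count minimum. The 18 tested genes had a summed level of 13700 to 16760 at 200 mg and 12250 to 14800 in isotype samples. C3 made up 26.8% to 35.1% of that sum at 200 mg and 20.9% to 23.1% in isotype samples. The sum therefore does not show that each gene was above background. The list of 18 tested genes also holds a few genes of other kinds, such as the transferrin receptor gene Tfrc. Of the 18, C4b rose (0.93, adjusted p = 0.0371), and the 1 gene that fell was Tfrc, which is neither a complement nor a hepatocyte-made acute phase gene. C3, the central component, had 4498, 4037 and 5168 at 200 mg, against 2833, 3370 and 2605 in isotype samples, and did not pass (0.64, adjusted p = 0.0781). C1qbp, a mitochondrial protein named for C1q binding, fell (-1.18, adjusted p = 0.0171). Hmgb1, a chromatin protein that signals damage when released, was the 1 call among 37 innate sensor and adaptor genes (-0.96), and Sigirr, an inhibitory receptor, the 1 among 16 interleukin-1 family genes (-0.83). With edgeR 0 of 5 mast cell and eosinophil genes passed (0 at an unadjusted p of 0.05, and 0 with DESeq2), as did 0 of 14 lipid and dead cell clearance genes (5 at an unadjusted p of 0.05, and 3, all rises, with DESeq2).

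**Figure D4:**
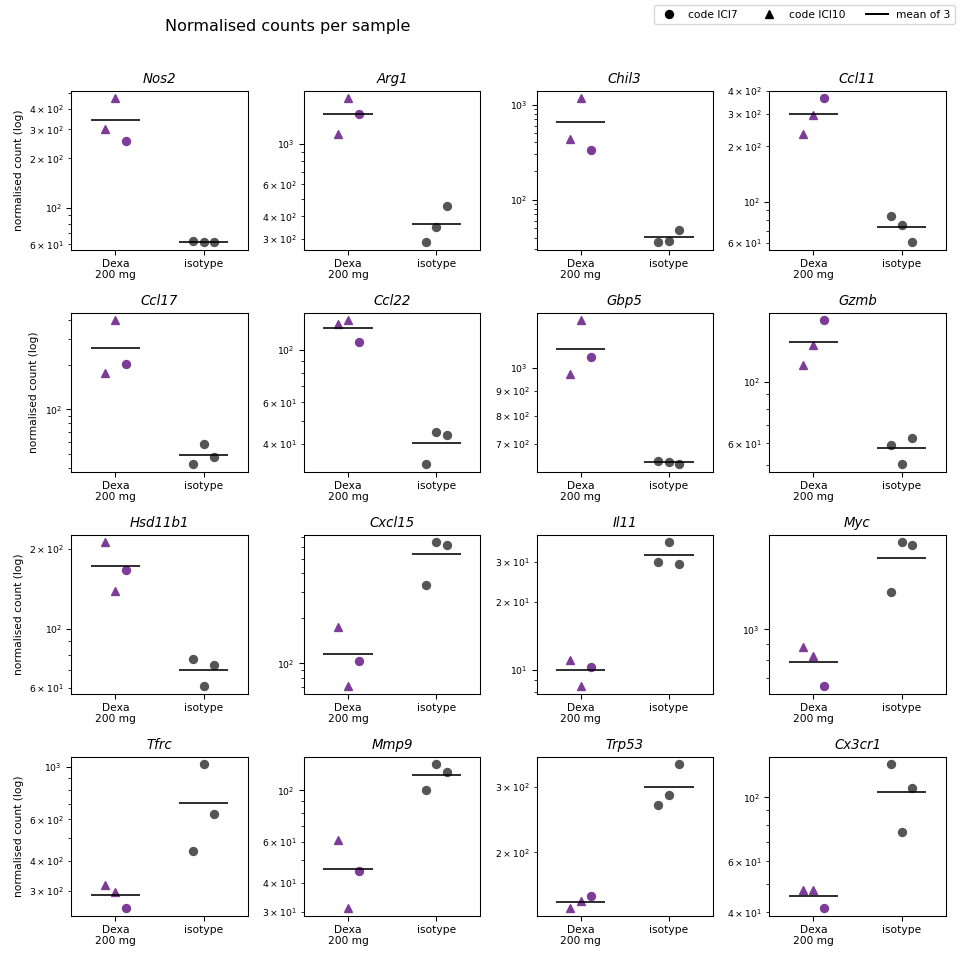
Normalised counts on a log axis for 16 genes, Dexa 200 mg on the left and isotype on the right of each panel, with a point per sample, the code of the labels as the symbol and the mean of 3 as a line. Nos2 and Gbp5 show isotype samples that almost coincide. In all 16 genes the 3 points at 200 mg lie outside the isotype range, as in all 84 genes that passed.

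The order of samples within the groups was not even. At 200 mg, replicate 3 was the highest 200 mg sample in 19 of the 39 genes that rose and the lowest in 29 of the 45 that fell, and replicate 1 was the highest in 27 of those 45. Among isotype samples, replicate 1 was the highest in 27 of the 39 genes that rose and the lowest in 35 of the 45 that fell, so it lay nearest to the 200 mg samples in both directions. Lyz2 took 4.97%, 6.29% and 8.47% of all gene counts in 200 mg replicates 1, 2 and 3, against 3.68%, 1.09% and 1.55% in isotype replicates 1, 2 and 3. The part of the macrophage level in the other gene groups was not tested.

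**Figure D5:**
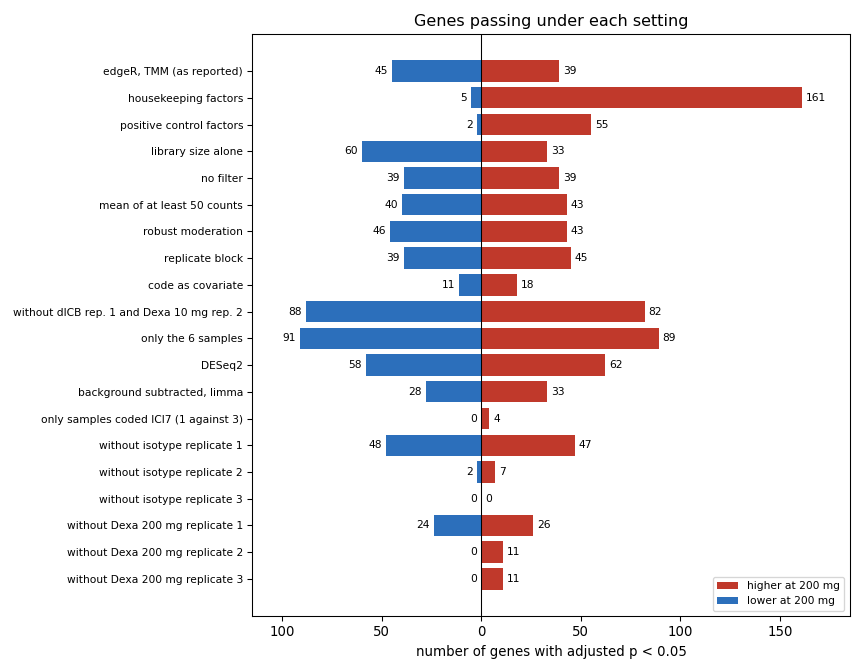
Number of genes with an adjusted p under 0.05 in the comparison of Dexa 200 mg with isotype under each setting, higher genes to the right and lower genes to the left of 0. Both sides are filled with TMM (39 higher, 45 lower), the lower side nearly empties with housekeeping factors (161 higher, 5 lower) and positive control factors (55 higher, 2 lower), and none remain without isotype replicate 3.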

How the data were processed

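Per the labels' protocols, the authors extracted total RNA from formalin-fixed tumour specimens; the instrument, panel name and processing steps were not given in the sources used here. The authors deposited whole-number counts per probe for 12 samples (4 groups of 3), with 770 gene probes, 6 positive and 8 negative control probes and no normalization, as the values show. From these counts, TMM factors and quasi-likelihood tests were computed with edgeR 4.0.16 (limma 3.58.1, DESeq2 1.42.0, R 4.3.3). The tests ran over all 12 samples, for genes averaging 20 counts or more, two-sided, with p-values adjusted over 635 genes. The 135 other genes were not tested, and 125 of them were at or below the background limit (negative control mean plus 2 SD) in all 6 samples compared. The SE of a log2 difference was its size over the root of the F value, and normalised counts were scaled to a mean effective library of 359600. On simulated data for this comparison (635 genes), 73 of 100 genes changed 2-fold and 92 of 100 changed 3-fold were called, and 6 of 435 unchanged genes were. The simulated counts were drawn with the means and spreads of the same fit, with no effect of the code and no single sample set apart. These rates therefore do not cover the dependence of the calls on the code or on single libraries. Same-numbered samples of the groups deviated with correlations of -0.388, -0.05 and -0.156, and differently numbered samples with -0.437 to 0.484. With 3 samples per group these values are bound to one another. They give no sign that the numbers pair samples, but they cannot settle it. No pair of samples agreed within counting noise (chi-square per degree of freedom 4.05 or more within the 2 groups). Gene names matched 754 current symbols and 8 synonyms in RefSeq, and 8 matched none. The comparison and the gene lists were chosen with earlier results of these data known. Named genes were up to 15 per direction by size of log2 difference among those past the threshold, up to 3 per list by smallest p, the blockade's targets and the glucocorticoid-responsive and housekeeping lists. Others are named among counts of 7 or fewer or chosen after their values were seen, and some were left out for length or are not reported here.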

Additional observations from a re-analysis of the deposited data

How the results depend on the processing

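All 84 genes kept their sign in every one of the up to 19 alternatives that gave them a value, which their groups without overlap largely fix. None was called in all 6 fits that left out 1 sample. Arg1, Nos2, Chil3, Clec7a, Ccl6, Ccl11 and Ccl19 were called in 5 of the 6. Lif, Alas1, Fpr2, Il12rb2, Egr1 and Cd44 were called in 0 of the 6. Against 84 genes (39 higher, 45 lower), housekeeping factors gave 166 (161 and 5), positive control factors 57 (55 and 2), the code as covariate 29 (18 and 11), the fit without blockade replicate 1 and Dexa 10 mg replicate 2 170 (82 and 88), the 6 samples alone 180 (89 and 91), DESeq2 120 (62 and 58), background subtraction with limma 61 (33 and 28), and samples coded ICI7 alone 4 (4 and 0). Library size alone gave 93 (33 and 60), no filter 78, a mean of at least 50 counts 83 and robust moderation 89. The replicate block gave 84 (45 and 39), although the samples are not known to be paired by number. Leaving out 1 sample gave 0 to 95 genes, 0 to 47 higher and 0 to 48 lower, the fewest without isotype replicate 3. Alternatives for the other comparisons were added after seeing the data. The blockade against isotype, with 0 genes, gave 45 with housekeeping factors, 4 with positive control factors, 2 without a filter, 1 with the replicate block, 10 without the 2 samples that stand apart, 24 with DESeq2, and 0 to 45 when 1 sample was left out (10 without blockade replicate 2, 45 without replicate 3). Dexa 10 mg against isotype gave 4 with DESeq2. Dexa 200 mg against the blockade gave 1 with the replicate block, 3 with DESeq2 and 0 to 8 when 1 sample was left out (8 without blockade replicate 2). Dexa 200 mg against 10 mg gave 2 without the 2 samples that stand apart and 23 among samples coded ICI10, where 10 mg replicate 2, one of those 2 samples, was the only 10 mg sample and was assumed to vary like the other groups. Of genes that did not pass, Pdcd1 changed sign with housekeeping factors (0.302), positive control factors (0.022) and samples coded ICI7 alone (0.142), Ctla4 with housekeeping factors (0.089), Cd8a without 200 mg replicate 3 (-0.041 to 0.398 when 1 sample was left out), and Cfd among samples coded ICI7 (-1.172) and without 200 mg replicate 1 (-1.008 to 4.153 when 1 sample was left out). The cause was not tested in any of these. Levels near the background limit of 24.5 to 36.2 normalised counts bound what could be seen of low genes such as Il11, Il7 and Klra17.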

Other observations

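Cfd, the complement factor D gene, which adipocytes also make in large amounts, had 1587, 55.0 and 42.5 normalised counts at Dexa 200 mg, against 25.3, 226 and 37.0 in isotype samples. Its log2 difference was 2.56 ± 1.61 and did not pass (edgeR, adjusted p = 0.291), and 200 mg replicate 1 alone set its sign. Among the 135 genes below the count minimum, 5 lay wholly above and 11 wholly below the isotype range at 200 mg.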
